A study of Mus musculus with 16 samples.

Results

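The mitosis genes are 42 genes whose products drive a cell through mitosis, the step of the cell cycle in which copied chromosomes are separated and the cell divides. They were chosen by name, from an exact match of the gene symbol in the deposited count table, and all 42 were among its 14829 genes. The RNA came from hematopoietic stem cells, which replenish all blood lineages, of 4 young and 4 old mice. Marrow of each mouse was divided, 1 portion was kept for 1 h at 37 °C with dmPGE2 (a dimethylated prostaglandin E2, an analogue that is broken down slowly) and the other with vehicle, and the stem cells were then sorted. This gave 16 libraries in 4 groups of 4: young vehicle, young dmPGE2, old vehicle and old dmPGE2. The labels give age as young or old only, and neither the strain nor the sort gate is given in the sources used here. Each of 2 dates in the labels, called date 1 and date 2, holds 2 young mice (477 and 478 on date 1, 483 and 484 on date 2) and 2 old mice (479 and 480 on date 1, 485 and 486 on date 2). Which step was done on those dates is not stated.

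Mitosis is started by the kinase CDK1 bound to cyclin A or cyclin B and is carried forward by the Aurora, Polo-like and spindle checkpoint kinases. It ends when the anaphase-promoting complex, a ubiquitin ligase, marks cyclin B and securin for destruction. Most of these genes are transcribed in the late cell cycle and are kept off in resting cells, in large part through promoter elements read by the DREAM, B-MYB and FOXM1 complexes. Hematopoietic stem cells of adult mice are known as mostly quiescent cells that divide seldom, so RNA of mitosis genes is low in a pool of resting stem cells and high in a pool of dividing progenitors. In bulk RNA, a smaller share of dividing cells and less RNA of these genes per cell cannot be told apart.

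The elements tied to late cell cycle transcription were looked for in promoter windows of 250 bases before to 50 bases after the annotated start of each gene. The windows came from RefSeq on GRCm38.p6, the assembly that mm10 names, and 35 of the 42 members matched an entry by symbol. Aurkb, Ccna2, Cdc25c, Cdca2, Kif20a, Smc4 and Tpx2 did not. The searched words were TTTGAA, the core of the cell cycle genes homology region (CHR), and CCAAT, the box bound by NF-Y, each on both strands. The windows of 1 member of each role are given here from 150 bases before the start, with Birc5 added as a member that held neither word. Capitals mark TTTGAA and CCAAT or their reverse complements TTCAAA and ATTGG, and each window runs 5′ to 3′ in the direction of its gene.
Ccnb2, cyclin B2 (chr9:70421505-70421704, minus strand): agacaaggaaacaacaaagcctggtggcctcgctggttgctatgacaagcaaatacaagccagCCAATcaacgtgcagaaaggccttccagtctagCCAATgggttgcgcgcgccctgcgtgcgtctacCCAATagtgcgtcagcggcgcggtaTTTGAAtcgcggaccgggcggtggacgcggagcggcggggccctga
Plk1, Polo-like kinase 1 (chr7:122159285-122159484, plus strand): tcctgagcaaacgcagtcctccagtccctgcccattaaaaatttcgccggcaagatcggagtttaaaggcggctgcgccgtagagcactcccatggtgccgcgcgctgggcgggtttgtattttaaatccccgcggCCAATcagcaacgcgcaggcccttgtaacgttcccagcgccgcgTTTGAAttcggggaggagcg
Cdc20, activator of the anaphase-promoting complex (chr4:118437294-118437493, minus strand): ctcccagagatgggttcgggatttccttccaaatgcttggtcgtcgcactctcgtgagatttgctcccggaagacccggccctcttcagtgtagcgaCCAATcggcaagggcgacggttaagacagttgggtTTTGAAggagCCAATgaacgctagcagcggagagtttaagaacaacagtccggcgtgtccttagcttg
Cdca8, borealin (chr4:124936868-124937067, minus strand): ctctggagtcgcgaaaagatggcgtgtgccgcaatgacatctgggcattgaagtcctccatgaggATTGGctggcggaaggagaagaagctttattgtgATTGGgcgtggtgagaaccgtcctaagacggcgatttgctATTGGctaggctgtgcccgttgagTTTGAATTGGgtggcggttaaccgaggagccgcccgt
Top2a, DNA topoisomerase II alpha (chr11:99024140-99024339, minus strand): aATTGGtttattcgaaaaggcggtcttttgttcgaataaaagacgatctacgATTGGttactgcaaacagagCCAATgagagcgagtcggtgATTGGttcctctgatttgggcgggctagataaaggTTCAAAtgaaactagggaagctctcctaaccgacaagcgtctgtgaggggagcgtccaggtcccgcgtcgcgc
Cenpa, the centromeric histone H3 variant (chr5:30666736-30666935, plus strand): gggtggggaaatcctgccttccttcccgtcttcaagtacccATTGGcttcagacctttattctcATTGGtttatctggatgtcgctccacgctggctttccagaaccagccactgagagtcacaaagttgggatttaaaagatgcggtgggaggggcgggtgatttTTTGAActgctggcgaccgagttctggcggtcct
Kif11, the spindle motor Eg5 (chr19:37376232-37376431, plus strand): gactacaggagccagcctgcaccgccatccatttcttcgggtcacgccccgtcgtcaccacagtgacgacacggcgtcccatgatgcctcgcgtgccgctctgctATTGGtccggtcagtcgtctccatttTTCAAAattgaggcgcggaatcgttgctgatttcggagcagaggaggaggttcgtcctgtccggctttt
Racgap1, a subunit of centralspindlin (chr15:99651607-99651806, minus strand): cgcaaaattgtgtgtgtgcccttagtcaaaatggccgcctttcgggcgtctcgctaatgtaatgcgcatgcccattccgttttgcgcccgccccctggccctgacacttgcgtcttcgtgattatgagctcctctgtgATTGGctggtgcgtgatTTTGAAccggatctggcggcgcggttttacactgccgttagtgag
Birc5, survivin (chr11:117849087-117849286, plus strand): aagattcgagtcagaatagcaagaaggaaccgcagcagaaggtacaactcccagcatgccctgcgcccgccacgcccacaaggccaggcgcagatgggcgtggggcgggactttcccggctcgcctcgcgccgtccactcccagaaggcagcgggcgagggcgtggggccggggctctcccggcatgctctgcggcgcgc

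Both words were common in the members' windows. TTTGAA was found in 28 of 35 members (80.0%) against 20.2% of all 27025 genes with a window, and CCAAT in 29 of 35 (82.9%) against 41.1%. Both words were found in 25 of 35 members and in 9.0% of all genes. The E2F word GGCGGGAA was in 0 of 35 members and in 2.5% of all genes. In the members, TTTGAA lay at a median of -1.5 bases from the annotated start (range -179 to 40) and CCAAT lay further upstream, at a median of -71.0 (range -228 to 18). In Cdca8 a TTTGAA match and an ATTGG match overlap. Birc5, Ncaph and Nusap1 held neither word in this window. These matches are a description of the letters, not of binding.

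**Figure D1:**
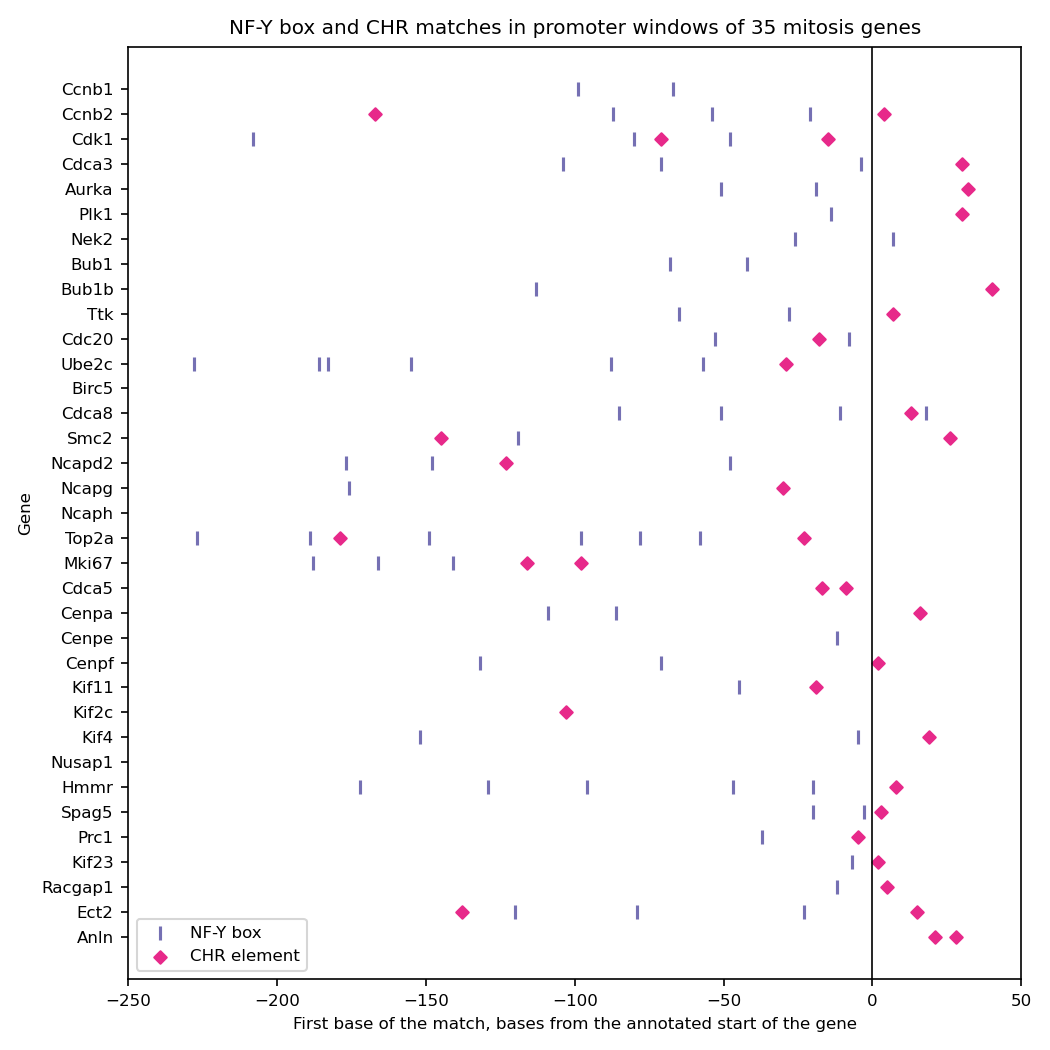
Positions of the NF-Y box (bars) and the CHR element (diamonds) in the promoter windows of the 35 matched mitosis genes. The horizontal axis is the distance in bases of the match from the annotated start (vertical line). CHR matches cluster around the start (median -1.5) and NF-Y boxes lie mostly upstream of it (median -71.0).

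All 42 genes were measured well above the counting limit. The lowest count of any member in any library was 57 (Cdc25c), in libraries of 12960704 to 19226963 counts. Per length, the highest mean levels over the 16 libraries belonged to Ube2c (85.4 RPKM), the ubiquitin-conjugating enzyme of the anaphase-promoting complex, Ccna2 (56.9 RPKM), cyclin A2, Ccnb2 (56.2 RPKM) and Cdc20 (53.2 RPKM). The lowest belonged to Cenpf (3.77 RPKM) and Cenpe (4.23 RPKM), which encode large proteins of the outer kinetochore, followed by Anln (5.52 RPKM), the contractile ring protein anillin, and Cdc25c (5.81 RPKM), the phosphatase that activates CDK1. RPKM here is CPM (counts scaled to library size after TMM scaling) per kilobase of the length given in the table.

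The libraries differed by date in markers of other blood cells, and these values stand beside every level below. The summed level of 10 myeloid progenitor and neutrophil markers was 129 to 303 CPM in the 4 vehicle libraries of date 1 and 1841 to 4283 CPM in the 4 of date 2. Mpo, the myeloperoxidase of granulocyte precursors, was at most 9.58 CPM on date 1 in vehicle and at least 908 CPM on date 2. The summed level of 14 stem cell markers was 4791 to 6220.0 CPM on date 1 and 3252 to 4862 CPM on date 2 in vehicle, and no stem cell marker was at 0 in any library. Their part in the results below was not tested.

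The mitosis genes were lower in old than in young stem cells. In vehicle libraries, 41 of 42 members were called lower in old mice and 0 higher, against 8.86% of all 13369 tested genes called lower, 8.47% called higher and 17.3% in either direction (edgeR quasi-likelihood test with date as a term, Benjamini-Hochberg adjusted p under 0.05). The median log2 fold change of the members, old minus young, was -1.02, beside a median of -0.00 over all tested genes. The 42 genes together held 3927 ± 904 CPM in young and 2015 ± 791 CPM in old vehicle libraries (SD, n = 4 each), a level 1.95 times as high in young mice. By mouse, the sum was 3029.7 and 3269 CPM in the young mice of date 1 and 4701 and 4709.5 CPM in those of date 2. It was 1704 and 1271 CPM in the old mice of date 1 and 1964 and 3121 CPM in those of date 2. The old mouse 486 thus lay above the young mouse 477 of the other date, and within each date both old mice lay below both young mice. For 13 members the 4 old libraries all lay below the 4 young ones, which held for 6.84% of all genes.

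**Figure D2:**
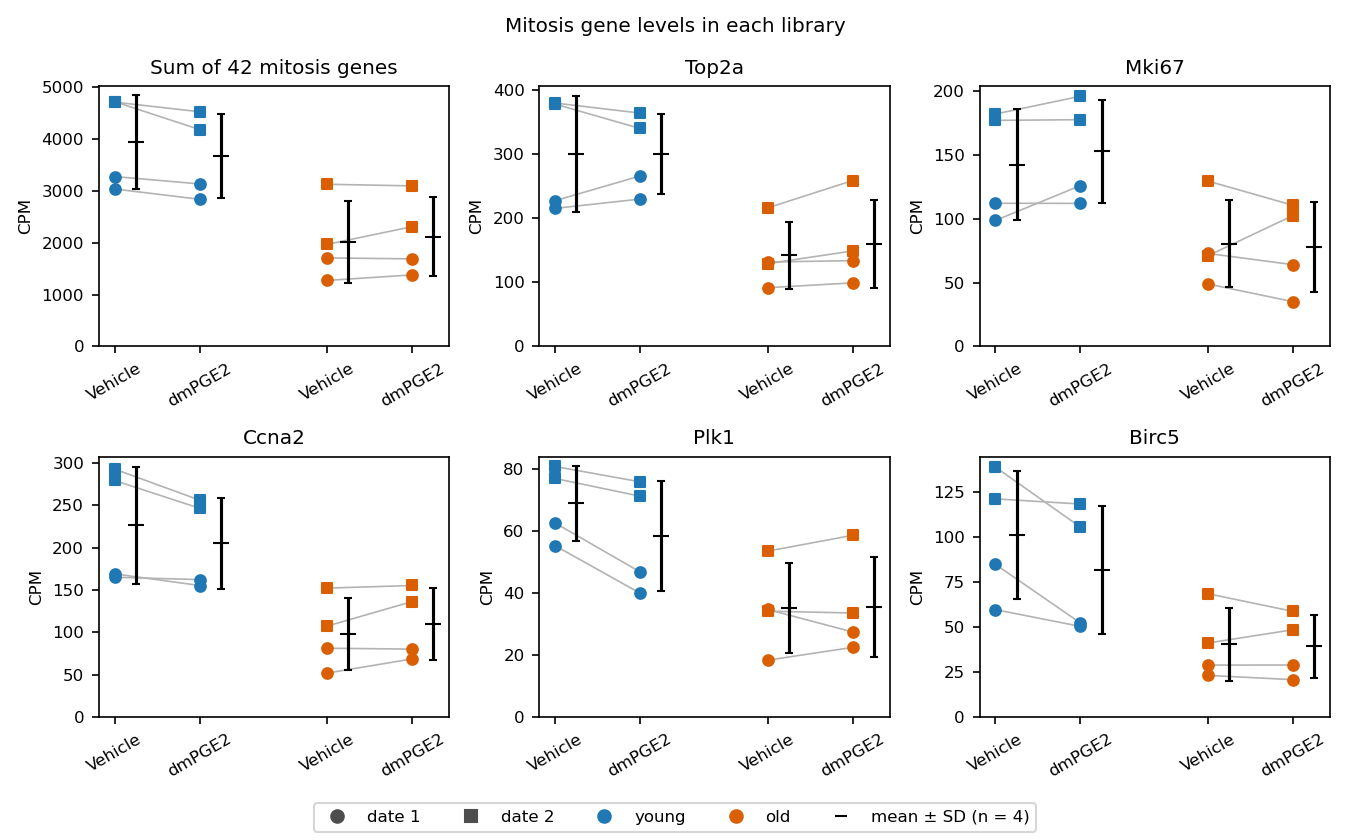
Levels in CPM in each of the 16 libraries for the sum of the 42 mitosis genes and for Top2a, Mki67, Ccna2, Plk1 and Birc5. Circles are date 1, squares date 2, blue young and orange old mice, lines join the libraries of a mouse, and black bars give the mean ± SD (n = 4). Old mice lie below young mice of the same date in each vehicle panel. The lines of single genes are not all level and run in either direction. Birc5 in mouse 478 was at 84.7 CPM in vehicle and 52.1 CPM in dmPGE2. Mki67 in mouse 485 was at 71.0 CPM in vehicle and 102 CPM in dmPGE2.

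Cyclins, CDK1 and its activators were called lower in old vehicle libraries for 6 of 6 genes, with a median log2 fold change of -1.17. Ccnb2, at 89.4, 109.7, 151 and 176 CPM in the young mice 477, 478, 483 and 484, was at 44.6, 30.3, 61.9 and 80.2 CPM in the old mice 479, 480, 485 and 486. Each old library lay below each young one, and the log2 fold change was -1.33 ± 0.14 (SE, adjusted p = 0.000208 in edgeR), the smallest p of the members. Ccna2, in the same order of mice, was at 169, 165, 279 and 293 CPM in young and 81.2, 51.8, 107 and 152 CPM in old mice. It did not overlap either, and fell by 1.26 on the log2 scale (SE 0.14, adjusted p = 0.000282 in edgeR). Cdk1, which encodes the kinase itself, was at 93.0, 109, 137 and 125 CPM in young and 46.6, 37.1, 54.2 and 85.2 CPM in old mice (log2 fold change -1.11 ± 0.15, adjusted p = 0.000744 in edgeR). Ccnb1, cyclin B1, was at 74.5, 85.4, 114 and 110.2 CPM in young and 38.6, 28.8, 57.5 and 85.4 CPM in old mice. Its groups overlapped, with the old mouse 486 level with the young mouse 478 and above the young mouse 477, and its log2 fold change was -0.97 ± 0.17 (adjusted p = 0.00275 in edgeR). Cdca3, a trigger of mitotic entry, and Cdc25c had log2 fold changes of -1.12 and -1.21.

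Mitotic kinases and the spindle checkpoint were called lower for 6 of 6 genes. Aurka, the Aurora kinase of spindle poles, was at 44.2, 55.4, 102 and 85.8 CPM in young and 29.8, 19.1, 36.9 and 53.1 CPM in old mice. Its groups overlapped between dates and not within them, and the log2 fold change was -1.07 ± 0.17 (adjusted p = 0.00164 in edgeR). Plk1, the Polo-like kinase of mitotic entry and spindle assembly, was at 55.2, 62.5, 80.7 and 76.9 CPM in young and 34.7, 18.3, 34.1 and 53.5 CPM in old mice (log2 fold change -1.02 ± 0.20, adjusted p = 0.0056 in edgeR). Bub1b, the checkpoint protein BubR1 that holds back anaphase, was at 106, 128, 166 and 168 CPM in young and 74.9, 44.8, 79.3 and 104 CPM in old mice (log2 fold change -0.94 ± 0.15, adjusted p = 0.00194 in edgeR). Neither Plk1 nor Bub1b overlapped between the ages. Bub1, the checkpoint kinase that works with BubR1, had the largest fall of the role at -1.41 ± 0.24 (adjusted p = 0.00255 in edgeR). Nek2 and Ttk, a centrosome kinase and a checkpoint kinase, had log2 fold changes of -0.97 each.

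The 2 members that partner the anaphase-promoting complex were called lower in old mice. Ube2c was at 66.6, 81.6, 151 and 163 CPM in young and 32.4, 18.7, 55.2 and 81.6 CPM in old mice. The log2 fold change was -1.38 ± 0.18 (adjusted p = 0.000628 in edgeR), with the old mouse 486 level with the young mouse 478 and above the young mouse 477. Cdc20 was at 109, 126, 134 and 124 CPM in young and 58.8, 46.6, 67.2 and 99.7 CPM in old mice, without overlap, and its log2 fold change was -0.91 ± 0.15 (adjusted p = 0.00239 in edgeR). Of 16 other genes of the complex, its core subunits with the partners Fzr1 and Ube2s, 5 were called lower, beside 8.86% of all genes, and 0 higher, with a median of -0.20. Those called with the smallest p were Anapc5 (-0.42 ± 0.06), Ube2s (-0.55 ± 0.11) and Cdc23 (-0.29 ± 0.07, all log2 fold changes with SE).

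The chromosomal passenger complex, which carries Aurora kinase B to centromeres and then to the division plane, was called lower for 3 of 3 genes. Birc5, its survivin subunit, was at 59.6, 84.7, 121 and 139 CPM in young and 28.8, 23.1, 41.1 and 68.4 CPM in old mice. The log2 fold change was -1.38 ± 0.17 (adjusted p = 0.000527 in edgeR), and the only crossing was the old mouse 486 above the young mouse 477. Cdca8, its borealin subunit, was at 74.1, 94.7, 135 and 121 CPM in young and 36.1, 33.5, 48.8 and 86.0 CPM in old mice (log2 fold change -1.12 ± 0.17, adjusted p = 0.00132 in edgeR). Aurkb, the kinase, had a log2 fold change of -1.26 ± 0.16 (adjusted p = 0.00064 in edgeR).

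Genes of chromosome structure were called lower for 9 of 9 members and held the 3 smallest differences of the 42. Smc4, an ATPase subunit shared by both condensins, had a log2 fold change of -0.57 ± 0.11 (adjusted p = 0.00441 in edgeR), and Smc2, its partner, had -0.55. Ncapd2, a regulatory subunit of condensin I, was at 174, 171, 184 and 202 CPM in young and 92.1, 96.2, 107 and 137 CPM in old mice. The groups stood apart and the spread was small, so that its log2 fold change of -0.79 ± 0.09 had the smallest p of the role (adjusted p = 0.000324 in edgeR). Top2a, which untangles DNA before chromosomes part, was at 216, 228, 380.1 and 378 CPM in young and 132, 91.8, 129 and 216 CPM in old mice (log2 fold change -1.08 ± 0.15, adjusted p = 0.000868 in edgeR). Mki67, the proliferation marker Ki-67 that coats mitotic chromosomes, was at 112, 98.6, 182 and 177 CPM in young and 72.8, 48.9, 71.0 and 129 CPM in old mice (log2 fold change -0.84 ± 0.17, adjusted p = 0.00794 in edgeR). In Mki67 the old mouse 486 exceeded both young mice of date 1. Ncaph, the kleisin of condensin I, was lower by a log2 fold change of -1.18 ± 0.17 (adjusted p = 0.00106 in edgeR). Cdca2, a phosphatase-targeting protein of anaphase chromatin, Cdca5, the cohesin protector sororin, and Ncapg, of condensin I, had log2 fold changes of -0.85, -1.07 and -0.997.

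Centromere and kinetochore genes were called lower for 3 of 3 members. Cenpa was at 47.8, 49.6, 83.3 and 82.1 CPM in young and 32.5, 19.3, 44.7 and 60.8 CPM in old mice. Its log2 fold change was -0.80 ± 0.16 (adjusted p = 0.00724 in edgeR), and Cenpe, a kinetochore motor, and Cenpf had -0.80 and -0.84. The spindle motors and microtubule binders were called lower for 7 of 7 members. Tpx2, which activates Aurora kinase A on the spindle, was at 88.0, 114, 122 and 124 CPM in young and 41, 27.3, 48.8 and 75.1 CPM in old mice. It did not overlap, with a log2 fold change of -1.30 ± 0.18 (adjusted p = 0.000958 in edgeR). Kif11 was at 91.5, 92.7, 136 and 152 CPM in young and 48, 31.5, 56.8 and 102 CPM in old mice (log2 fold change -1.06 ± 0.18, adjusted p = 0.0031 in edgeR). Nusap1 and Hmmr, which bind spindle microtubules, had log2 fold changes of -1.19 ± 0.19 (adjusted p = 0.00163) and -1.20 ± 0.22 (adjusted p = 0.00401, both in edgeR). The remaining 3, the microtubule depolymerase Kif2c, the chromokinesin Kif4 and the spindle protein Spag5, had -0.85, -1.03 and -0.95.

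Genes of the central spindle and of cytokinesis were called lower for 5 of 6 members. Racgap1 was at 122, 128, 143 and 151 CPM in young and 65.7, 60.5, 80.4 and 112 CPM in old mice, without overlap, and its log2 fold change was -0.82 ± 0.12 (adjusted p = 0.00101 in edgeR). Ect2, the exchange factor that centralspindlin recruits to start the contractile ring, had -1.41 ± 0.22 (adjusted p = 0.00162 in edgeR), level with Bub1 as the largest fold of the 42 members. Kif20a, a motor of the central spindle, had -0.86 ± 0.13 (adjusted p = 0.00124) and Prc1, which bundles its microtubules, had -1.02 ± 0.17 (adjusted p = 0.00213, both in edgeR). Kif23, the motor subunit of centralspindlin, had -0.84. Anln was the member not called, with a log2 fold change of -0.88 ± 0.28 (adjusted p = 0.0546 in edgeR).

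**Figure D3:**
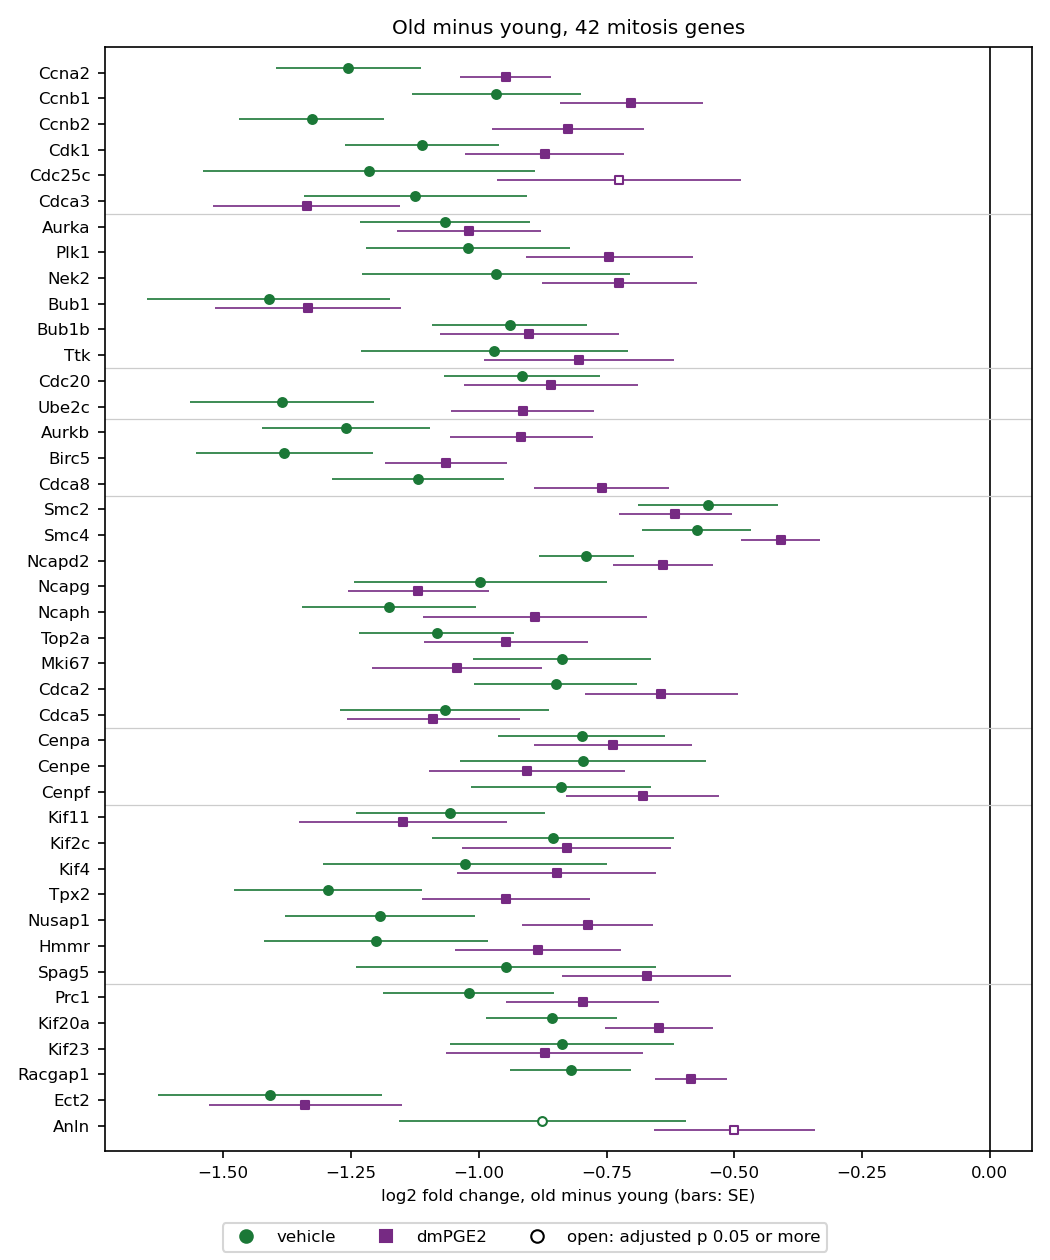
log2 fold change, old minus young, of each of the 42 mitosis genes in vehicle libraries (green circles) and dmPGE2 libraries (purple squares), with bars of ± 1 SE and open symbols for an adjusted p of 0.05 or more in edgeR. All values lie below 0, and the open ones are Anln in both arms and Cdc25c in the dmPGE2 arm.

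The age comparison was made again in the dmPGE2 libraries, which come from the same 8 mice. There 40 of 42 members were called lower in old mice and 0 higher, against 6.41% of 13279 genes called lower and 7.85% higher, with a median of -0.85 (all genes -0.01). For 12 members the groups did not overlap, beside 5.95% of all genes. All 40 were among those called in vehicle, and the exceptions were Anln (-0.50 ± 0.16, adjusted p = 0.0609) and Cdc25c (-0.73 ± 0.24, adjusted p = 0.0699, both in edgeR). The smallest p belonged to Ccna2 (-0.95 ± 0.09, adjusted p = 0.000121), Birc5 (-1.06 ± 0.12, adjusted p = 0.000313), Racgap1 (-0.58 ± 0.07, adjusted p = 0.000479) and Ncapg (-1.12 ± 0.14, adjusted p = 0.000516, all in edgeR). Old mice were at least 2-fold lower for 22 members in vehicle and for 9 in dmPGE2. That cut lies near the medians of both arms, and the share of all genes past it was not counted. The direct test of the dmPGE2 effect between the ages, given below, called 0 members. The sum of the members was 3662 ± 809 CPM in young and 2114 ± 756 CPM in old dmPGE2 libraries (SD, n = 4 each), a ratio of 1.73. Without the term for date, 12 members were called lower in vehicle and 3 in dmPGE2. Fitted on the libraries of date 1 alone the counts were 36 and 41, and on those of date 2 alone 9 and 4, in fits added after the data were seen. The share of all genes called without the date term or on 1 date alone is not given here. Whether a loss of calls was particular to the members was not tested. In this arm too 1 library of an old mouse, 486, at 3089 CPM, lay above the lowest young one at 2832 CPM.

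Neighbouring genes of cell division were lower in old mice as well, though not all of them. Of all tested genes, 8.86% were called lower and 8.47% higher in vehicle. Of 61 other mitosis genes, 42 were called lower and 0 higher in vehicle (median log2 fold change -0.87), led by Spc25, a subunit of the NDC80 complex (-1.21 ± 0.14), Ckap2l (-1.11 ± 0.14) and the CDK subunit Cks1b (-0.98 ± 0.12). Of 29 DNA replication genes, 29 were called lower (median -0.95), led by Mcm5 (-1.10 ± 0.08), Mcm10 (-1.64 ± 0.13) and Mcm2 (-0.83 ± 0.07). Of 20 cell cycle transcription factors, 9 were called lower and 1 higher, beside 8.86% and 8.47% of all genes. Mybl2, the B-MYB factor that acts on promoters with a CHR, was lower by a log2 fold change of -1.55 ± 0.24, Tfdp1 by -0.48 ± 0.08 and E2f1 by -0.93 ± 0.16. Rbl2, the p130 pocket protein that holds these promoters off in resting cells, was the 1 called higher (0.39). Rbl2 was named after its value was seen, and its part in the lower values was not tested.

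Some markers of cell type moved with age too, where 8.47% of all tested genes were called higher and 8.86% lower in vehicle. Of 14 stem cell markers, 11 were called higher in old vehicle libraries and 0 lower, such as Slamf1 (CD150, 1.22 ± 0.15). Of 10 myeloid progenitor and neutrophil markers, 4 were called lower and 1 higher, and of 10 erythroid markers 3 were called lower, and 0 of either list were at 0 in all libraries of a date. Among the other lists, 1 of 7 tested megakaryocyte markers, 1 of 7 T and NK cell markers (Klrb1c) and 2 of 5 endothelial markers (Kdr and Vwf) were called higher. On date 1, 5 of the 7 T and NK cell markers (Cd3d, Cd3e, Cd3g, Cd8a and Ncr1) were below 1 CPM in every library. Cdh5 and Flt1 of the endothelial list were at most 2.66 CPM in any library. Whether T, NK or endothelial cells were present was not tested. Of the B cell markers 0 of 4, and of the monocyte and macrophage markers 0 of 8, were called in either direction. By date, the summed myeloid markers averaged 145 CPM in young and 284 CPM in old vehicle libraries on date 1, and 3686 and 1948 CPM on date 2. The summed erythroid markers averaged 2089.6 and 2203 CPM on date 1 and 3194 and 2153 CPM on date 2. Prtn3 made up most of the myeloid sum on date 1, at 114 and 149 CPM in young and 257 and 296 CPM in old vehicle libraries. Mpo ran the other way, at 9.58 and 7.64 CPM in the young mice and 2.01 and 2.97 CPM in the old mice of that date. The rest of the myeloid list was near the floor there, at most 1.49 CPM in a vehicle library (Ms4a3 in mouse 479). Car2 made up most of the erythroid sum on date 1, where Klf1, an erythroid transcription factor, was at 4.90 and 5.38 CPM in young and 7.57 and 3.79 CPM in old mice. The 42 mitosis genes together stood on date 1 at 3149 CPM in young and 1487 CPM in old mice, a ratio of 2.12. On date 2 they stood at 4705 and 2543 CPM, a ratio of 1.85. The part of the marker genes in these ratios was not tested.

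Within each date, tested in 1 fit with a term for each age and date, the age difference was lower for old mice in every member. On date 1, 29 members were called lower (2.95% of all genes), with a median of -1.17, and all 42 had both old libraries below both young ones, beside 26.4% of all genes. On date 2, 20 were called lower (3.24% of all genes), with a median of -0.90, and for 36 the libraries did not overlap (24.5% of all genes). The smallest p on date 1 belonged to Ncapd2 (-0.89 ± 0.13, adjusted p = 0.00459) and Ccnb2 (-1.43 ± 0.21, adjusted p = 0.00463), and on date 2 to Ccnb2 (-1.23 ± 0.20, adjusted p = 0.00806) and Ccna2 (-1.17 ± 0.20, adjusted p = 0.00986, all in edgeR). Each side held 2 mice within a date, and the counts changed when 1 mouse was left out. Leaving out a mouse also removes samples, and the cause was not tested. The share of all genes called in those fits is not given here. The date 1 count was 1 without the young mouse 478, 3 without the old mouse 480 and 18 without the young mouse 477. The date 2 count was 0 without the old mouse 485, 2 and 5 without the young mice 484 and 483, and 11 without either of the young mice 477 and 478 of the other date. The log2 fold change was larger on date 1 for 33 members, but the difference between the dates was called for 0 members (0 of 13369 genes in edgeR, 0% of all genes; 788 genes had an unadjusted p under 0.05). Among members the smallest p for that difference was in Anln (1.14 ± 0.45, adjusted p = 0.845), Ncapg (0.99 ± 0.40, adjusted p = 0.845) and Kif4 (0.99 ± 0.48, adjusted p = 0.854, all in edgeR).

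The mitosis genes were also higher on date 2 than on date 1, in fits with a date term shared by both ages. The date difference was not tested within an age. In old vehicle mice the dates overlapped for some members, such as Top2a at 129 CPM in mouse 485 and 132 CPM in mouse 479. With age as a term, 25 of 42 members were called higher on date 2 in vehicle and 0 lower, beside 8% of all genes called higher and 3.01% lower, with a median of 0.73. In dmPGE2 libraries 31 were called higher and 0 lower (7.67% and 4.05% of all genes), with a median of 0.67, and 20 members were called in both arms. All 42 differences were positive in each arm. In vehicle the smallest p belonged to Ube2c (1.24 ± 0.18, adjusted p = 0.00105), Ccna2 (0.86 ± 0.14, adjusted p = 0.00237), Ncaph (0.99 ± 0.17, adjusted p = 0.00333) and Ccnb2 (0.81 ± 0.14, adjusted p = 0.00346, all in edgeR). The condensin genes Ncapd2 (0.26 ± 0.09) and Smc4 (0.32 ± 0.11), named after their values were seen, had the smallest differences in vehicle and were not called. In the same comparison 9 of 10 myeloid markers and 7 of 10 erythroid markers were called higher and 12 of 14 stem cell markers lower on date 2. Their part in the difference between dates was not tested. Without the young mouse 477 the vehicle count was 11, without the old mouse 480 it was 15 and without the old mouse 486 it was 16. In dmPGE2 libraries it was 17 without mouse 477.

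**Figure D4:**
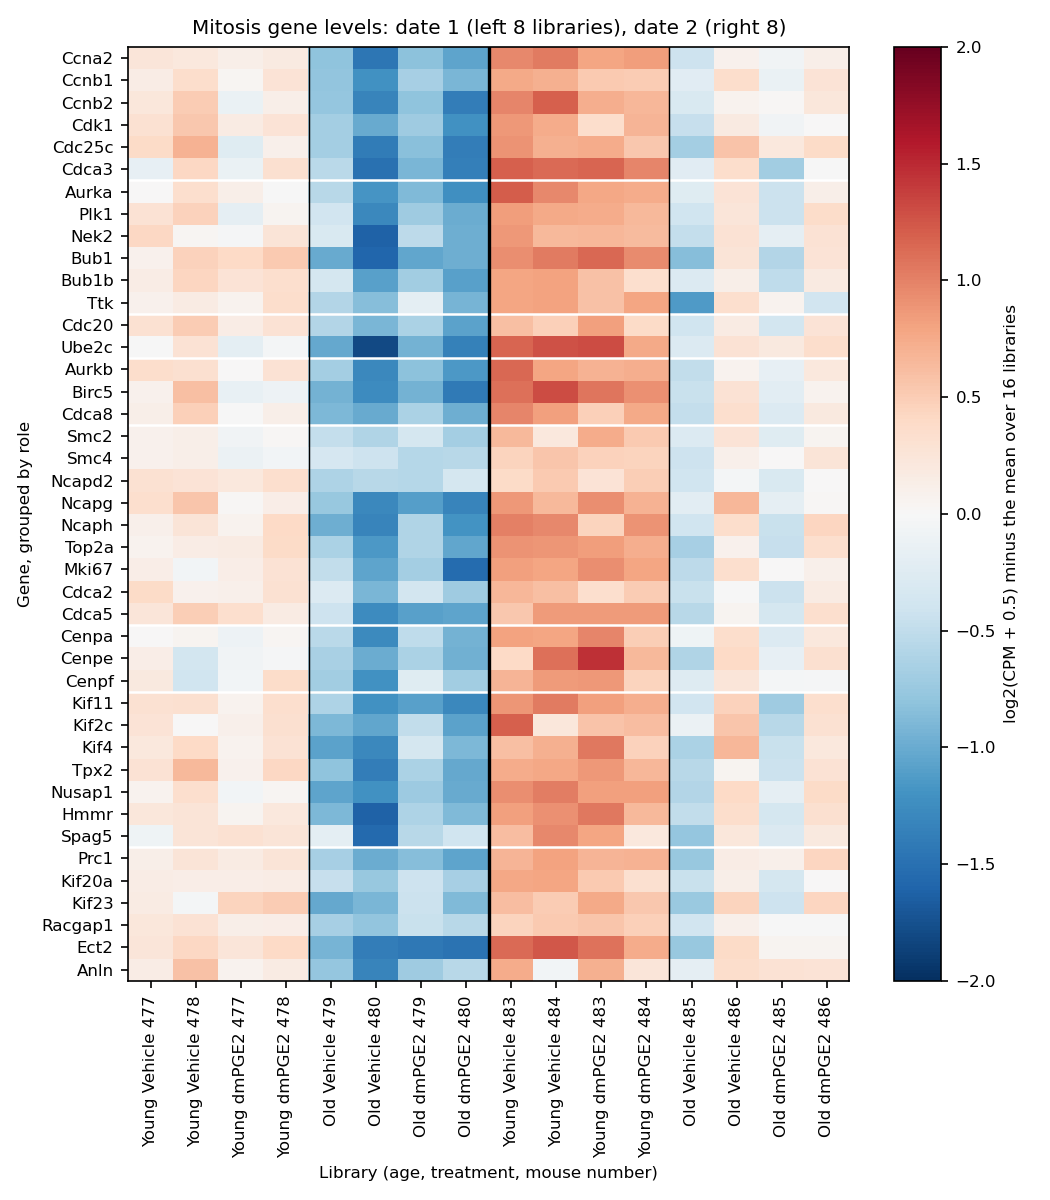
log2(CPM + 0.5) of each mitosis gene (rows, grouped by role) in each library (columns), minus the gene's mean over the 16 libraries. Red is above and blue below the mean. By the sum of the members, old date 1 libraries were lowest (1271 to 1704 CPM) and young date 2 libraries highest (4174 to 4710 CPM). Young date 1 libraries lay between them, at 2832 to 3269 CPM. The old date 2 mice were split. Mouse 485 was at 1964 CPM in vehicle and 2305 CPM in dmPGE2, and mouse 486 at 3121 and 3089 CPM. Single rows did not all keep this order. In vehicle, Top2a was at 129 CPM in mouse 485 and 132 CPM in mouse 479.

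An hour of dmPGE2 left the mitosis genes without a called change. In all mice, with each dmPGE2 library set against the vehicle library of its own mouse, 0 of 42 members were called, beside 0.61% of all 13942 genes, and the median log2 fold change was 0.00 with 21 members above 0 and 21 below. Without adjustment, 5 members had a p under 0.05, as had 1749 of all 13942 genes. Nearest to a call were Kif11 (-0.20 ± 0.06, adjusted p = 0.216), Kif23 (0.25 ± 0.09, adjusted p = 0.256) and Aurka (-0.20 ± 0.08, adjusted p = 0.302, all in edgeR). The SE of the members ran from 0.04 to 0.17 on the log2 scale, and a p that misses the threshold does not show that a member did not change. DESeq2, limma-voom and every other alternative run also called 0 members in all mice.

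In young mice most members had lower values under dmPGE2 than under vehicle. Of 42, 34 had a log2 fold change below 0 (median -0.11, all genes 0.01), but 0 were called, as were 0% of all genes in edgeR, with 6 members at an unadjusted p under 0.05 beside 1785 of all 13942 genes. Ccnb2 had the smallest p (-0.38 ± 0.09, adjusted p = 0.145), then Birc5 (-0.34 ± 0.11, adjusted p = 0.266) and Cdca8 (-0.27 ± 0.10, adjusted p = 0.308, all in edgeR). Ccnb2 was at 70.3, 82.9, 127 and 122 CPM in the dmPGE2 libraries of mice 477, 478, 483 and 484, each below the 89.4, 109.7, 151 and 176 CPM of the vehicle library of that mouse. Birc5 was at 50.3, 52.1, 118 and 105 CPM beside 59.6, 84.7, 121 and 139 CPM, also lower in 4 of 4 mice. Cdca8 was at 67.6, 73.6, 94.8 and 115 CPM beside 74.1, 94.7, 135 and 121 CPM, again lower in each mouse. In all, 11 members were lower in every young mouse (9.8% of all genes) and 1, Kif23, was higher in every one (9.87% of all genes). The 11 were Ccna2, Ccnb1, Ccnb2, Cdk1, Cdc25c, Plk1, Aurkb, Birc5, Cdca8, Nusap1 and Ect2, named after their values were seen. Ccnb2 was called lower in DESeq2 (adjusted p = 0.00822) and when dmPGE2 was fitted separately in each age on each date (adjusted p = 0.036 in edgeR), and those 2 fits called 277 and 257 genes in all. Over all alternatives the smallest adjusted p of a member in young mice was 0.00822.

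In old mice most values lay on the other side. There 31 members had a log2 fold change above 0 (median 0.11, all genes -0.01) and 0 were called, as were 0% of all genes in edgeR, and 8 members had an unadjusted p below 0.05 beside 1096 of all 13942 genes. Nearest to a call were Tpx2 (0.24 ± 0.09, adjusted p = 0.509), Kif11 (-0.25 ± 0.09, adjusted p = 0.534) and Nusap1 (0.24 ± 0.09, adjusted p = 0.534, all in edgeR). Tpx2 was at 46.4, 35.4, 53.6 and 88.6 CPM in the dmPGE2 libraries of mice 479, 480, 485 and 486, above the 41, 27.3, 48.8 and 75.1 CPM of their vehicle libraries. Kif11 was lower, at 34.5, 29.95, 45.1 and 93.1 CPM beside 48, 31.5, 56.8 and 102 CPM. Higher in every old mouse were 4 members, Ube2c, Ncapd2, Top2a and Tpx2 (7.98% of all genes), and lower in every one were 2, Aurka and Kif11 (8.98% of all genes). Of the 42, 25 were lower in young and higher in old mice, 2 the reverse, 9 lower in both and 6 higher in both. These are signs of estimates of which 0 were called, and the same split was not counted over all genes.

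The difference of the dmPGE2 effects between the ages was tested directly and was called for 0 members, as for 0% of all genes in edgeR (955 genes at an unadjusted p under 0.05). Its median over the members was 0.22, old minus young, with 33 above 0. Ccnb2 had the smallest p (0.50 ± 0.12, adjusted p = 0.696), followed by Nusap1 (0.42 ± 0.12, adjusted p = 0.696) and Ube2c (0.50 ± 0.16, adjusted p = 0.696, all in edgeR). By mouse, the summed level changed from vehicle to dmPGE2 by -6.52%, -4.33%, -3.93% and -11.4% in the young mice 477, 478, 483 and 484. It changed by -1.09%, 8.32%, 17.3% and -1.01% in the old mice 479, 480, 485 and 486. All 4 young mice were thus slightly lower, while the old mice were split.

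**Figure D5:**
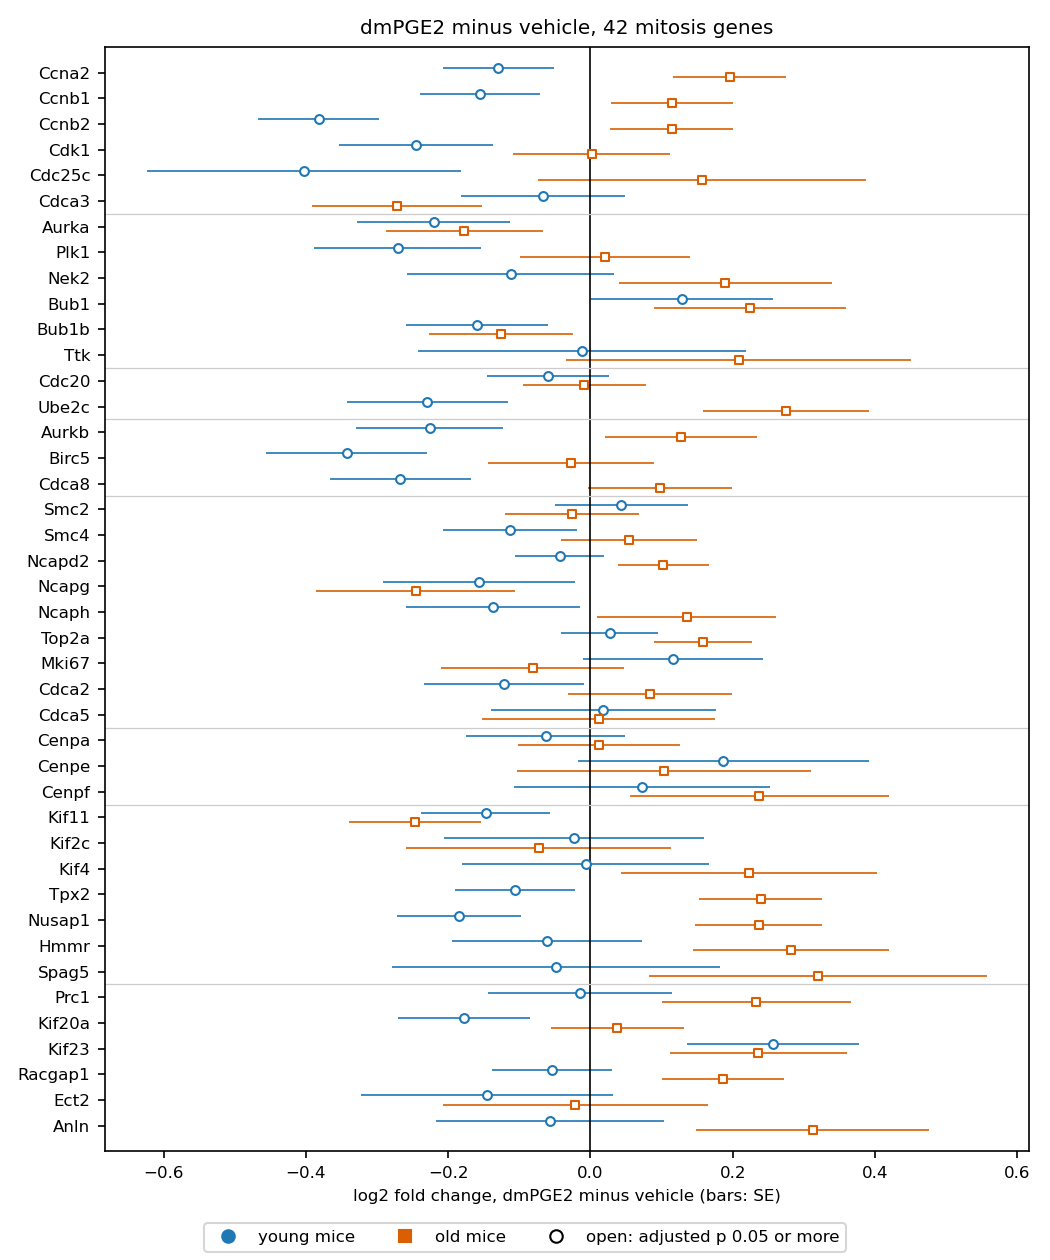
log2 fold change, dmPGE2 minus vehicle within a mouse, of each of the 42 mitosis genes in young (blue circles) and old mice (orange squares), with bars of ± 1 SE. All symbols are open (adjusted p of 0.05 or more in edgeR), and 34 young and 11 old values lie below 0.

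By date, 0 members were called for dmPGE2 on date 1, beside 2.93% of all genes, and 0 on date 2, beside 0.387%. The effect differed between the dates for 0 members and 1.08% of all genes (edgeR in each case). On date 1 the smallest p belonged to Kif23 (0.38 ± 0.12, adjusted p = 0.159), Smc4 (-0.18 ± 0.07, adjusted p = 0.268) and Ccnb2 (-0.20 ± 0.08, adjusted p = 0.301, all in edgeR). On date 2 it belonged to Prc1 (0.26 ± 0.09, adjusted p = 0.49), Bub1b (-0.21 ± 0.09, adjusted p = 0.566) and Kif20a (-0.18 ± 0.08, adjusted p = 0.569, all in edgeR). For the difference, date 2 minus date 1, it belonged to Smc4 (0.30 ± 0.10, adjusted p = 0.315), Prc1 (0.30 ± 0.13, adjusted p = 0.507) and Kif20a (-0.23 ± 0.12, adjusted p = 0.576, all in edgeR). Over all mice, in the lists of other mitosis genes, the anaphase-promoting complex and DNA replication, 0 genes were called for dmPGE2, beside 0.61% of all genes. Of the cell cycle transcription factors 1 was called, Rb1, the retinoblastoma protein, higher by 0.41 ± 0.08 (adjusted p = 0.0379 in edgeR).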

How the data were processed

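The deposited table holds raw counts per gene for 16 libraries (STAR 2.5.2b, featureCounts, Subread 1.5.1 and mm10, per the submitters' processing notes), not normalized by the authors. Overlapping genes may share reads, since the counting strand is not given in the sources used here. Totals were 12960704 to 19226963 counts.

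Members and lists were chosen with earlier results of these data known. edgeR 4.0.16 in R 4.3.3 (quasi-likelihood test, robust dispersion, TMM, filterByExpr) was fitted on the whole table. Calls needed a Benjamini-Hochberg adjusted p under 0.05 over all tested genes. The filter kept 42 of 42 members in each comparison. An approximate SE was computed from the log2 fold change and the F statistic (its absolute value divided by the root of F). The dmPGE2 fits had mouse as a block, since the submitters' design text says that the cells of each mouse were split. The labels give both libraries of a pair the same number. Deviations from group means correlated at 0.429 to 0.693 within mice, and at 0.027 to 0.223 after date means were also removed. Age fits had date as a term. Each fit was run on simulated counts with an age or a dmPGE2 effect but no mouse or date differences. The simulation therefore could not test the date terms or the differences between effects.

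Per-library values are given for the member of highest mean CPM and of smallest age p in each role, plus Mki67, Top2a, Cdk1, Ccnb1, Birc5 and Plk1. Tested values are given for called members by smallest p, at most 4 per role and direction, or, with none called, for the 3 of smallest p. Alternatives were RLE or no scaling, no filter, DESeq2 1.42.0, limma-voom 3.58.1, non-robust dispersion, other date and mouse terms, and leaving out each mouse. Fits on the libraries of 1 date were added after seeing the data.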

Additional observations from a re-analysis of the deposited data

How the results depend on the processing

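Each side held 2 to 4 mice in the main age and date comparisons. The main dmPGE2 comparisons were made within 4 mice or within all mice. The lowest count of a member was 57, and whether depth limited the calls was not tested. No member named with a per-library value changed sign under any alternative in a comparison in which it was called. Over these members and alternatives, the old minus young call was kept 283 times and lost 23 times in vehicle, and kept 272 times and lost 34 times in dmPGE2. The age counts stayed within 1.5 times of 41 (vehicle) and 40 (dmPGE2) under other scaling, filters and tools. Leaving out each mouse gave 31 to 42 and 32 to 40 called members. Without the date term they were 12 and 3, and in the libraries of date 2 alone, chosen after seeing the data, 9 and 4, beside 36 and 41 in those of date 1 alone. Within dates in vehicle, leaving out each mouse gave 1 to 35 (date 1) and 0 to 27 (date 2), and DESeq2 gave 31 on date 2. For date 2 against date 1, leaving out each mouse gave 11 to 31 in vehicle and 17 to 35 in dmPGE2. In these fits the cause was not tested, and leaving out a mouse also removes samples. The share of all genes called in them is not given here. For dmPGE2, 0 members were called under every alternative in every comparison except in young mice, where DESeq2 called 1 and a term for each age and date with the replicate block called 1, Ccnb2 in both. Without the replicate block 0 members were called in each of the 7 dmPGE2 comparisons. No paired analysis was possible for the age and date comparisons because each mouse has 1 age and 1 date.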
